A study of Homo sapiens with 15 samples.

Results

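The MYC, MAX and MXD network is a set of 10 genes for related transcription factors that share partners. The members were taken by symbol, mapped from the Ensembl identifiers of the deposited count table with the version dropped: MYC, MYCN, MYCL, MAX, MXD1, MXD3, MXD4, MXI1, MNT and MLX. All 10 were found among the 60649 genes of the table, and 9 of them were among the 23711 genes that passed the filter on low counts; MYCN did not. K-562 is an established human cell line of chronic myelogenous leukemia that carries the BCR-ABL fusion, and it is the only line of these libraries. Poly(A) RNA was sequenced from untreated cells and from cells given martinostat, a histone deacetylase inhibitor, at 0.15, 0.25, 0.5 or 1 µM for 24 h, with 3 libraries in each of the 5 groups and 15 in all. The labels call the controls untreated, name no vehicle and number the libraries as biological replicates. The question of the comparisons was how the members changed with the concentration of the inhibitor.

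MYC proteins bind DNA only as dimers with MAX, at the E-box, a short palindromic site, and switch on genes of ribosome production, nucleotide synthesis and cell growth. The MXD proteins (MXD1, MXI1, MXD3 and MXD4) and MNT compete for MAX and for the same site, and they bring in the SIN3 corepressor with the deacetylases HDAC1 and HDAC2, so they oppose MYC. MLX is a MAX-like protein that pairs with the nutrient sensors MLXIP and MLXIPL and with some MXD proteins. In blood cells MYC is known for high levels during proliferation, and MXD1 for its rise when myeloid cells mature.

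The members that carry an E-box near their own start are shown here because the E-box is the site that proteins of the network bind, and MXD1 is shown beside them because its level moved in both directions. RefSeq promoters on GRCh38.p14 ran from 250 bases before to 50 bases after each start. They gave 12 windows for 9 members, and MYC had no entry. The E-box was searched as CACGTG, which reads the same on both strands, and was found in 3 of the 12 windows, those of MXD4, MNT and MLX. Of all 35116 promoters of the same length, 7.26% held it. The 250 bases before the start are printed from 5′ to 3′ on the strand of the gene, with the E-box in capitals. The MXD4 stretch is chr4:2262110-2262359 on the minus strand, and its E-box begins at position -238, counted from the start.
MXD4: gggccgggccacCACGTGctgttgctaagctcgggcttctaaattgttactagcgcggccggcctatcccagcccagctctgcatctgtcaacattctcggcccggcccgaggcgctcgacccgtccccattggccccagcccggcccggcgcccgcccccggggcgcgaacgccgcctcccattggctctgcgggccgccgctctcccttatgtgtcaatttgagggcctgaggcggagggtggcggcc
The MNT stretch is chr17:2401061-2401310 on the minus strand, with the E-box at position -193.
MNT: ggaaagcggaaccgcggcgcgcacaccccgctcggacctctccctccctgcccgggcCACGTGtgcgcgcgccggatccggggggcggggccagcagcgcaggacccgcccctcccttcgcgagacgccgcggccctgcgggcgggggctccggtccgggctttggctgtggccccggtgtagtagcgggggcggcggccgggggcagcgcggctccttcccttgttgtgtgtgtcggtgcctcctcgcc
The MLX stretch is chr17:42566850-42567099 on the plus strand, with the E-box at position -50.
MLX: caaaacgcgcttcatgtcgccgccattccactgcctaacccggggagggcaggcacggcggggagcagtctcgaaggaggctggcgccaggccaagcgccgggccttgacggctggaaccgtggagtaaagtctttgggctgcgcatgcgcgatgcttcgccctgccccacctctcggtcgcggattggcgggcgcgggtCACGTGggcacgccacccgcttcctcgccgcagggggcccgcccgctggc
The MXD1 stretch is chr2:69914859-69915108 on the plus strand, before a RefSeq start inside the GENCODE span of the gene, and its window held no E-box.
MXD1: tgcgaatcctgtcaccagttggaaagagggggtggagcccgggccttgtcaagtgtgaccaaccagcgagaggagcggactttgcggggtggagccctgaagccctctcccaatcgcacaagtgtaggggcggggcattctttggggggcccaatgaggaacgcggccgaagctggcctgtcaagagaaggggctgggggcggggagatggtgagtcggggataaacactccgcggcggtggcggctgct
The GC box, searched as GGGCGG on both strands, was in 11 of the 12 windows and in 45.0% of all promoters. The windows of the members held 55.0% to 76.0% G and C and 12 to 43 CG dinucleotides, against medians of 58.7% and 14 over all promoters. A match of these letters is a description of the sequence and no evidence of binding. The 3 genes with an E-box did not move together, since MXD4 rose while MNT and MLX were lower at 1 µM, as given below.

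Library totals were 23755510 to 32805574 counts, and the levels are CPM, counts scaled to a common library size, here after TMM (trimmed mean of M values). Errors after ± are SD of the 3 libraries of a group, and errors called SE belong to a log2 fold change. In the principal components of log2 CPM, replicate 3 at 0.25 µM and replicate 3 at 0.5 µM lay at 48.7 and 52.1 on component 3, with the other 13 libraries at 9.52 or lower, so the counts below are also given without this pair of libraries. All 7 markers of the erythroid character of K-562 were above 1 CPM in every group. Their summed level fell with dose, from 2606 to 2832 CPM in the untreated libraries to 751 to 902 CPM at 1 µM, and GATA1, the erythroid master factor, was at 328 ± 5.92 and 18.9 ± 3.08 CPM. The summed levels of 5 lymphoid markers were 5.79 to 9.28 CPM in untreated libraries. They were 21.1 to 30.0 and 15.0 to 18.8 CPM with 0.15 and 0.25 µM, and 9.03 to 10.7 and 10.0 to 13.2 CPM with 0.5 and 1 µM. Of the 5, 2 were at 1 CPM or more in untreated cells and at 1 µM, and 3 at the doses between. The B-cell marker MS4A1 was under 0.1 CPM in every group. Markers of endothelium (3 genes) were at 0.0772 to 0.157 CPM in untreated libraries, 2.08 to 4.13 CPM at 0.15 µM and 3.45 to 5.51 CPM at 1 µM, with CDH5, PECAM1 and VWF under 0.1 CPM in untreated cells. Those of fibroblasts (3 genes) were at 21.8 to 25.3, 271 to 363 and 301 to 486 CPM in the same groups. Of these 3 genes, 2 were at 1 CPM or more in every group, and COL3A1 was under 0.1 CPM in untreated cells and at 1 µM. Exons of MLX, MAX and MNT lie for 18.2%, 16.1% and 12.2% of their length under exons of the opposite strand, which makes their counts uncertain where strand was not used. The part of these shifts of markers in the results was not tested, and in bulk RNA fewer cells of a type and less RNA per cell cannot be told apart.

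The members showed different patterns over the doses. MYC fell at each dose, with its main drop between 0.25 and 0.5 µM. MXD4 rose at each dose, MXD1 fell at the low doses and rose at the high ones, and MYCL rose at each dose with no further step between doses called. Of the 9 tested members, edgeR's quasi-likelihood test called 6 at 0.15 µM against untreated cells, where 51.2% of all tested genes were called: 2 were higher (31.9% of all genes) and 4 lower (19.4%). At 0.25 µM 7 members were called, against 62.3% of all genes, 2 of them higher (37.4% of all genes) and 5 lower (24.8%). At 0.5 µM 8 were called, against 66.9%, 4 higher (39.4%) and 4 lower (27.6%). At 1 µM 8 were called, against 66.2%, 4 higher (38.8%) and 4 lower (27.5%). The libraries of the treated and the untreated group did not overlap in 8 of 9 members at each of the 4 doses, against 63.2%, 67.5%, 69.9% and 74.9% of all genes in the order of dose. With so many genes called, the number of members called is not by itself a result about the network. The median log2 fold change of the tested members was -0.28, -0.53, -0.09 and -0.27, beside 0.28, 0.32, 0.34 and 0.32 for all tested genes. Because untreated libraries served all 4 comparisons, the 4 counts are not independent of each other. Without both replicates 3 named above, 7, 7, 7 and 8 members were called. All genes called were then 13823, 15030, 15858 and 16811 of 23711.

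**Figure D1:**
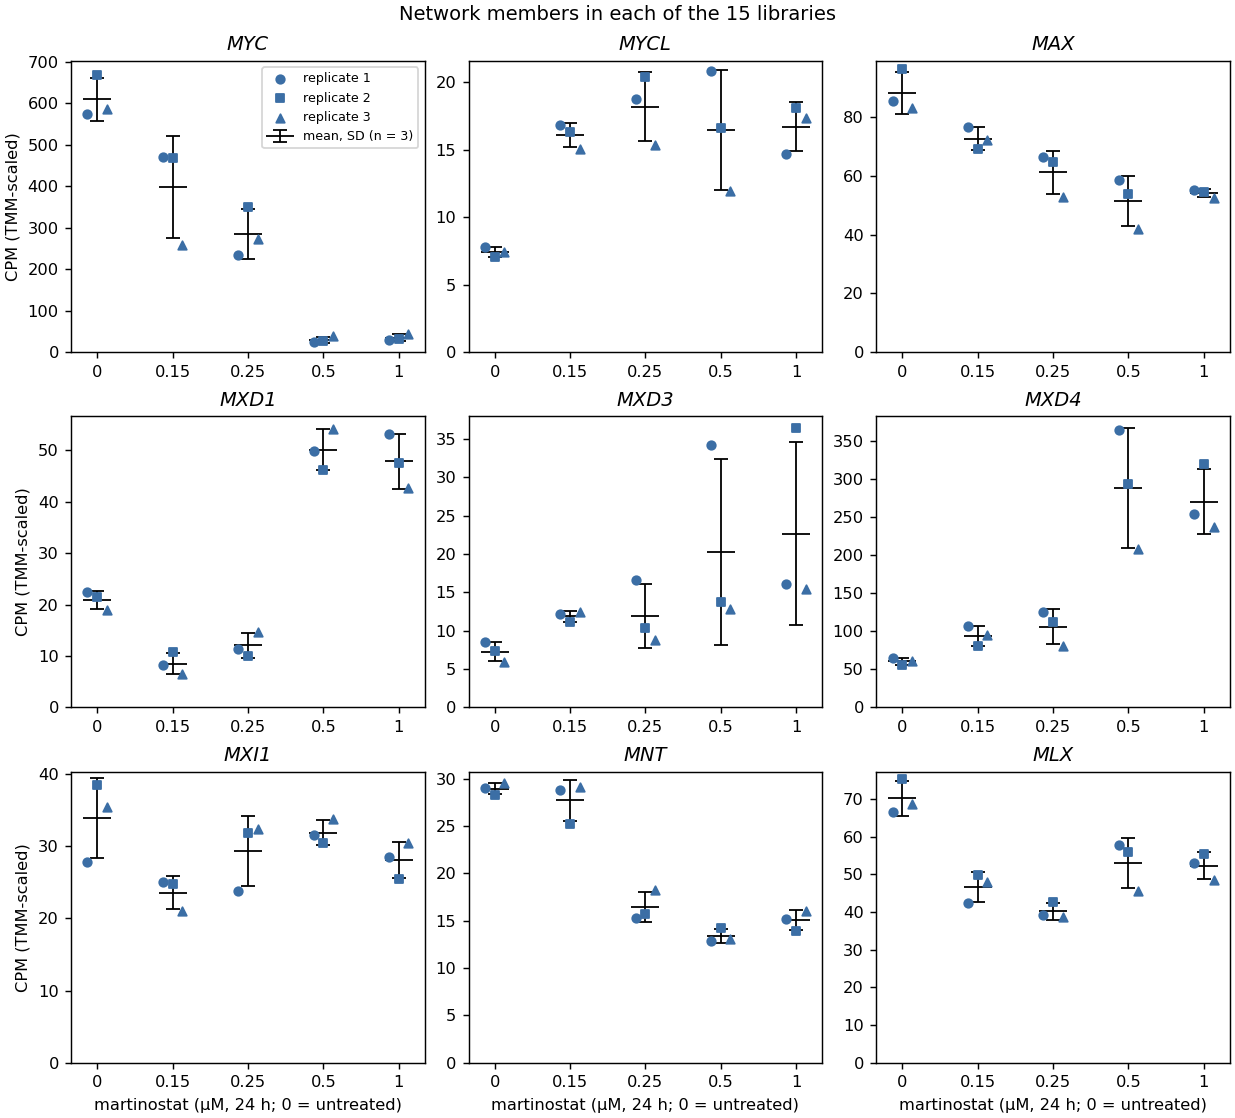
Each panel gives 1 member, with the dose of martinostat on the x axis and TMM-scaled CPM from 0 on a linear y axis; points are single libraries and bars the mean ± SD of 3. MYC drops between 0.25 and 0.5 µM from 233 or more to 38.5 CPM or less, where MXD1 and MXD4 rise, and MXD3 has 1 library far above the others at 0.5 µM and at 1 µM.

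MYC (ENSG00000136997) lies on chr8:127735434-127742951, plus strand, in hg38. In the untreated libraries it was at 574, 670 and 587 CPM. It was at 470, 468 and 258 CPM at 0.15 µM and at 233, 351 and 273 CPM at 0.25 µM. It then stood at 24.2, 26.4 and 38.5 CPM at 0.5 µM and at 29.0, 32.0 and 43.9 CPM at 1 µM. No treated library reached the untreated ones, and no library at 0.5 or 1 µM reached those at 0.25 µM. The group means were 610 ± 52.0, 399 ± 122, 286 ± 60.1, 29.7 ± 7.71 and 35.0 ± 7.85 CPM, so that the mean at 1 µM was 17.5-fold lower than in untreated cells. On the log2 scale the change was -0.61 (SE 0.23, edgeR adjusted p = 0.0352) at 0.15 µM and -1.09 (SE 0.24, edgeR adjusted p = 0.000559) at 0.25 µM. It was -4.36 (SE 0.27, edgeR adjusted p = 9.55e-11) at 0.5 µM and -4.13 (SE 0.27, edgeR adjusted p = 1.68e-10) at 1 µM. The step from 0.25 to 0.5 µM alone was -3.27 (SE 0.26, edgeR adjusted p = 3.34e-08), while the steps below it (-0.48, edgeR adjusted p = 0.202) and above it (0.23, edgeR adjusted p = 1) were not called. Ranked by log2 fold change at 1 µM, MYC was the 124th lowest of 23711 genes. The calls at 0.5 and 1 µM held under all 24 alternatives, with log2 fold changes of -4.32 to -3.73 at 1 µM. The call at 0.15 µM was weak: it was lost without untreated replicate 1 (-0.66), 2 (-0.54) or 3 (-0.64) and without replicate 3 at 0.15 µM (-0.38), under the scalings by library totals (-0.24) and by genes of at least 10 CPM (-0.34), and with at least 10 counts required in every library (-0.44). The call at 0.25 µM was lost under library totals (-0.57).

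MYCL (ENSG00000116990, chr1:39895428-39902256, minus strand), a MYC paralogue first found in lung cancer, went the other way. It was at 7.81, 7.07 and 7.44 CPM in untreated cells and at 16.8, 16.3 and 15.1 CPM at 0.15 µM. At 0.25 µM it was at 18.8, 20.4 and 15.4 CPM, at 0.5 µM at 20.8, 16.6 and 12.0 CPM, and at 1 µM at 14.7, 18.1 and 17.4 CPM. All 12 treated libraries were above the untreated ones, with no order among the doses. MYCL was higher by 1.11 on the log2 scale (SE 0.19, edgeR adjusted p = 8.09e-05) at 0.15 µM and by 1.17 (SE 0.19, edgeR adjusted p = 2.55e-05) at 1 µM, and it was called at the doses between them too, under every alternative. None of the 3 steps between neighbouring doses was called. Among MYC, MYCL and MYCN, set against each other per kb of exon within each library, MYCL held 1.49 ± 0.187% in untreated cells. It held 5.01 ± 1.47% and 7.38 ± 1.41% with 0.15 and 0.25 µM, and 40.7 ± 12.1% and 37.2 ± 4.29% with 0.5 and 1 µM. MYC held the larger share at the top dose, 62.4 ± 4.11%. The size of these shares depends on the exon lengths used.

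MYCN (ENSG00000134323, chr2:15940550-15947007, plus strand), the paralogue amplified in neuroblastoma, had 0 counts in all untreated libraries and in all libraries at 0.15 µM. A count of 0 over the untreated group allows up to 3 counts, or 0.0395 CPM. The libraries at 0.25 µM had 2, 0 and 8 counts, those at 0.5 µM 1, 4 and 6, and those at 1 µM 4, 0 and 4. The summed counts of 10, 11 and 8 correspond to 0.103, 0.132 and 0.0932 CPM over each group. The gene was thus at the edge of detection, it was not tested, and such floors cover counting error only.

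MAX (ENSG00000125952, chr14:65006174-65102695, minus strand), a partner shared by MYC, MXD and MNT proteins, was lower from 0.25 µM upward. It was at 85.4, 96.4 and 83.1 CPM in untreated cells, at 76.8, 69.2 and 72.2 CPM at 0.15 µM and at 55.4, 54.4 and 52.6 CPM at 1 µM. The group means were 88.3 ± 7.12, 72.7 ± 3.85, 61.3 ± 7.37, 51.5 ± 8.62 and 54.1 ± 1.41 CPM. It was not called at 0.15 µM (-0.28, SE 0.14, edgeR adjusted p = 0.103) and was lower at 0.25 µM (-0.53, edgeR adjusted p = 0.00312), 0.5 µM (-0.78, edgeR adjusted p = 8.2e-05) and 1 µM (-0.71, SE 0.14, edgeR adjusted p = 0.00022). At 0.25 µM the call was lost under library totals (-0.011), with TMM from genes of at least 10 CPM (-0.10) and with at least 10 counts in every library (-0.24). Between 0.15 and 1 µM MAX was lower as well (-0.43, edgeR adjusted p = 0.0189), a call lost without replicate 1 at 0.15 µM (-0.39), without replicate 3 at 1 µM (-0.41) and with RLE size factors (-0.32) or DESeq2 (-0.32).

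MXD4 (ENSG00000123933, chr4:2247432-2262109, minus strand), one of the MYC antagonists, was the member with the largest rise. It was at 64.7, 55.0 and 61.5 CPM in untreated cells, at 106, 80.3 and 94.7 CPM at 0.15 µM and at 125, 112 and 80.5 CPM at 0.25 µM. It reached 364, 293 and 207 CPM at 0.5 µM and 254, 319 and 237 CPM at 1 µM. All treated libraries were above the untreated ones, and all libraries at 0.5 and 1 µM were above all libraries at the 2 lower doses. The mean at 1 µM was 270 ± 43.2 CPM against 60.4 ± 4.94 CPM, or 4.47-fold higher. Its log2 fold change was 0.63 (SE 0.20, edgeR adjusted p = 0.0125) at 0.15 µM, 0.81 (SE 0.20, edgeR adjusted p = 0.00176) at 0.25 µM, 2.25 (SE 0.21, edgeR adjusted p = 1.72e-08) at 0.5 µM and 2.16 (SE 0.21, edgeR adjusted p = 2.91e-08) at 1 µM. Of the steps between neighbouring doses the one from 0.25 to 0.5 µM was called (1.44, SE 0.20, edgeR adjusted p = 2.26e-05). Many genes rose by more: MXD4 was the 5715th highest of 23711 genes at 1 µM. The call at 0.15 µM was lost without untreated replicate 2 (0.57) and without replicate 1 at 0.15 µM (0.53), and those at 0.25, 0.5 and 1 µM held in all 24 alternatives.

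MXD1 (ENSG00000059728, chr2:69897688-69942945, plus strand), the founding MXD gene, moved in opposite directions at low and high dose. It was at 22.4, 21.4 and 19.0 CPM in untreated cells and at 8.26, 10.7 and 6.54 CPM at 0.15 µM. It was at 11.5, 10.1 and 14.7 CPM at 0.25 µM, at 49.9, 46.2 and 54.2 CPM at 0.5 µM and at 53.2, 47.6 and 42.7 CPM at 1 µM. The untreated libraries thus lay above all 6 libraries of the low doses and below all 6 of the high doses. The mean was 2.46-fold lower than in untreated cells at 0.15 µM and 2.28-fold higher at 1 µM. MXD1 changed by -1.30 on the log2 scale (SE 0.18, edgeR adjusted p = 8.78e-06) at 0.15 µM and -0.79 (SE 0.18, edgeR adjusted p = 0.000802) at 0.25 µM. It was 1.26 (SE 0.18, edgeR adjusted p = 4.75e-06) at 0.5 µM and 1.19 (SE 0.18, edgeR adjusted p = 9.06e-06) at 1 µM. The difference was tested directly, as 2.49 (SE 0.19, edgeR adjusted p = 4.51e-09) between 0.15 and 1 µM and 2.05 (SE 0.18, edgeR adjusted p = 1.16e-07) between 0.25 and 0.5 µM. The fall at 0.15 µM and the rises at 0.5 and 1 µM were called in all 24 alternatives. The fall at 0.25 µM was lost under library totals (-0.25) and with TMM from genes of at least 10 CPM (-0.36).

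MXD3 (ENSG00000213347, chr5:177301461-177312757, minus strand), a family member described in cycling cells, was low and uneven. It was at 8.46, 7.38 and 5.95 CPM in untreated cells, at 12.2, 11.1 and 12.4 CPM at 0.15 µM and at 16.6, 10.3 and 8.74 CPM at 0.25 µM. It was at 34.2, 13.7 and 12.9 CPM at 0.5 µM and at 16.0, 36.4 and 15.4 CPM at 1 µM. All treated libraries were above the untreated ones, and at each high dose 1 library lay far above the other 2. A rise was called at 0.5 µM (1.48, SE 0.40, edgeR adjusted p = 0.00461) and at 1 µM (1.64, SE 0.40, edgeR adjusted p = 0.00225) and not at 0.15 µM (0.71, SE 0.40, edgeR adjusted p = 0.152) or 0.25 µM (0.71, edgeR adjusted p = 0.137). Without replicate 1 at 0.5 µM it was 0.87 at that dose (edgeR adjusted p = 0.0267), and without replicate 2 at 1 µM it was 1.11 at that dose, called in both cases. Its exons lie for 24.2% of their length under exons of the opposite strand, those of PRELID1, and for 19.5% under exons of RAB24 on the same strand, so its counts are uncertain.

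MXI1 (ENSG00000119950, chr10:110207605-110287365, plus strand), also known as MXD2, changed little. It was at 27.8, 38.5 and 35.4 CPM in untreated cells, at 25.0, 24.7 and 21.0 CPM at 0.15 µM and at 28.5, 25.5 and 30.4 CPM at 1 µM, where the groups overlapped. It was called lower at 0.15 µM (-0.53, SE 0.16, edgeR adjusted p = 0.00913) and at no other dose, with -0.27 at 1 µM (SE 0.16, edgeR adjusted p = 0.136). The call at 0.15 µM was lost without untreated replicate 2 (-0.42), under library totals (-0.16), with TMM from genes of at least 10 CPM (-0.25) and with at least 10 counts in every library (-0.35). Without untreated replicate 1 it was called at 1 µM too (-0.39, edgeR adjusted p = 0.0458).

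MNT (ENSG00000070444, chr17:2384073-2401104, minus strand), a constitutive antagonist that is present in both growing and resting cells, was lower from 0.25 µM upward. It was at 29.0, 28.3 and 29.5 CPM in untreated cells and, overlapping with them, at 28.8, 25.2 and 29.1 CPM at 0.15 µM. It was at 15.3, 15.7 and 18.3 CPM at 0.25 µM, at 12.9, 14.2 and 13.1 CPM at 0.5 µM and at 15.2, 14.0 and 16.0 CPM at 1 µM. Log2 fold changes were -0.06 (SE 0.13, edgeR adjusted p = 0.726) at 0.15 µM, -0.81 (SE 0.14, edgeR adjusted p = 4.1e-05) at 0.25 µM, -1.11 (edgeR adjusted p = 8.77e-07) at 0.5 µM and -0.94 (SE 0.14, edgeR adjusted p = 6.48e-06) at 1 µM. MNT was the 1 member called between 0.15 and 0.25 µM (-0.75, SE 0.14, edgeR adjusted p = 0.00153), where 12.3% of all genes were called. Under library totals the call at 0.25 µM against untreated cells was lost (-0.28), and the value at 0.15 µM turned to 0.30, uncalled.

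MLX (ENSG00000108788, chr17:42567072-42573239, plus strand) was at 66.5, 75.3 and 68.5 CPM in untreated cells and at 42.2, 49.7 and 48.0 CPM at 0.15 µM. It was at 39.1, 42.6 and 38.6 CPM at 0.25 µM, at 57.8, 55.8 and 45.5 CPM at 0.5 µM and at 52.8, 55.4 and 48.5 CPM at 1 µM. All treated libraries were below the untreated ones, and the lowest group was 0.25 µM. The log2 fold change was -0.59 (SE 0.13, edgeR adjusted p = 0.000932), -0.81 (edgeR adjusted p = 2.92e-05), -0.40 (SE 0.13, edgeR adjusted p = 0.0103) and -0.42 (SE 0.13, edgeR adjusted p = 0.00755) from 0.15 to 1 µM. These calls depended on the scaling: at 0.5 µM the value was -0.04 under library totals and 0.011, with a turned sign, under TMM from genes of at least 10 CPM, and at 1 µM it was -0.07 and -0.03. With at least 10 counts in every library the values at 0.5 and 1 µM were -0.11 and -0.15, and under library totals that at 0.15 µM was -0.23, none of them called. The call at 0.5 µM was also lost without replicate 3 at that dose (-0.30) and without both replicates 3 at 0.25 and 0.5 µM (-0.26). The step up from 0.25 to 0.5 µM (0.40, SE 0.13, edgeR adjusted p = 0.0245) was lost without replicate 1 (0.38) or 3 (0.38) at 0.25 µM and without replicate 1 (0.34) or 2 (0.36) at 0.5 µM, under library totals (0.24), without a filter on low counts (0.40) and with the 6 compared libraries alone (0.39).

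**Figure D2:**
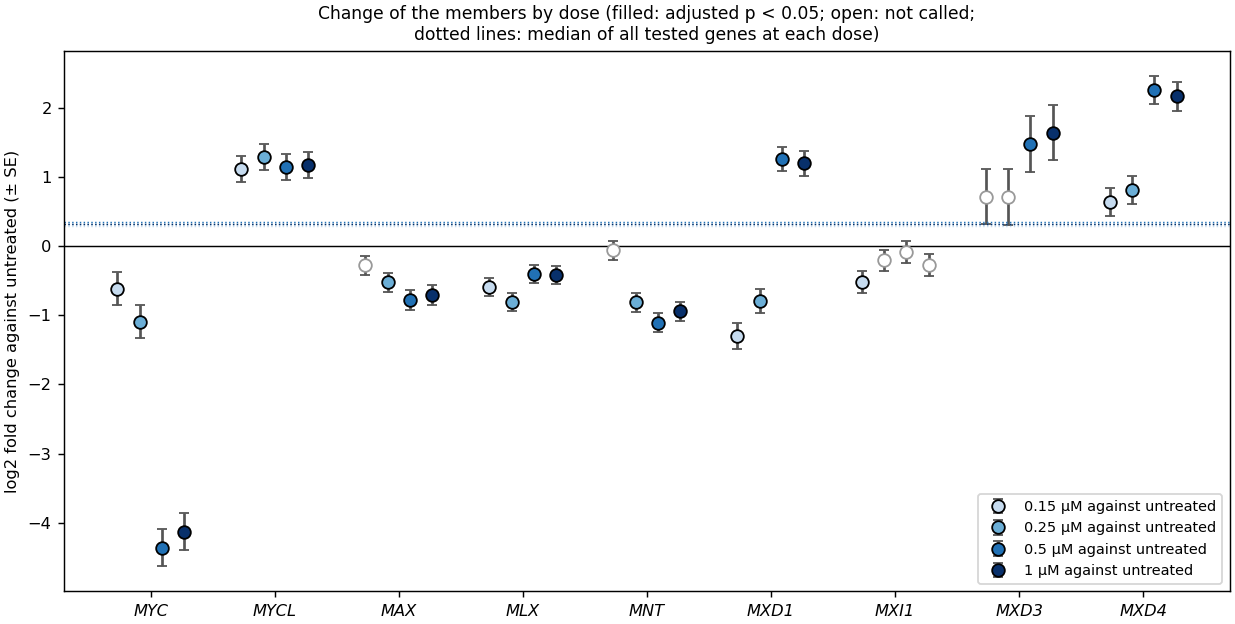
The log2 fold change of each of the 9 tested members against untreated cells is on the y axis, 4 doses side by side, with bars of 1 SE; filled points were called at an adjusted p under 0.05, and dotted lines give the median of all tested genes, 0.28 to 0.34. MYC is at -4.36 and -4.13 at the high doses, MXD1 is below 0 at the low doses and above 0 at the high ones, and MXI1 is called at 0.15 µM alone.

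Between neighbouring doses, the step from 0.25 to 0.5 µM had the most members called: 4 of 9, against 30.4% of all genes. MXD1, MXD4 and MLX were higher (14.4% of all genes) and MYC was lower (16% of all genes). The libraries of these neighbouring doses did not overlap in 5 of 9 members, against 38.6% of all genes. From 0.15 to 0.25 µM none was higher (4.96% of all genes) and 1, MNT, lower (7.32%), and the libraries did not overlap in 2 of 9 members (30.6% of all genes). Between 0.5 and 1 µM no member was called by edgeR, none had an unadjusted p under 0.05 and none was called by DESeq2. In that step edgeR called 0 of 23711 genes (372 had an unadjusted p under 0.05), and DESeq2 also called 0. The libraries at 0.5 and 1 µM did not overlap in 1 of 9 members, MXI1, against 5.63% of all genes. Between 0.15 and 1 µM 5 members were called, against 44.5%: MXD1 and MXD4 were higher (21.5% of all genes) and MYC, MAX and MNT lower (23.1%). The libraries of these doses did not overlap in 7 of 9 members, against 58.7% of all genes. All members with a call in the step from 0.25 to 0.5 µM, other than MLX, were also called between 0.15 and 1 µM.

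Another scaling of the libraries moved all members by a like amount, which changed the calls of small changes. The untreated libraries had TMM factors of 0.784 to 0.828, and all treated ones factors of 0.950 or more. Scaled by library totals instead, the median of all genes rose from 0.28 to 0.64 at 0.15 µM, from 0.32 to 0.85 at 0.25 µM, from 0.34 to 0.72 at 0.5 µM and from 0.32 to 0.67 at 1 µM. Relative to the median gene at 1 µM, MYC changed by -4.44, MNT by -1.26, MAX by -1.02, MLX by -0.74 and MXI1 by -0.59 on the log2 scale. On the same relative scale MXD4 changed by 1.84, MXD3 by 1.32, MXD1 by 0.87 and MYCL by 0.85. At 0.15 µM the relative change was -1.58 for MXD1, -0.90 for MYC and 0.83 for MYCL. With TMM 2 members were higher and 4 lower at 0.15 µM, and 2 higher and 5 lower at 0.25 µM. Over all genes TMM called 12148, 7557 of them higher, and 14761, 8873 of them higher. Under library totals 3 members were higher and 1 lower at each of these doses. All genes called were then 11700, 9582 of them higher, and 14764, 11697 of them higher. TMM from genes of at least 10 CPM gave 3 higher and 2 lower at 0.15 µM, and 3 higher and 3 lower at 0.25 µM. Over all genes it called 11972, 9129 of them higher, and 14854, 11241 of them higher. The split of all genes thus moved with the scaling too. At 0.5 and 1 µM 4 members were higher under each of the 4 scalings, and 3 or 4 were lower. Of 23711 genes, 9336 to 11441 were called higher at 0.5 µM under these scalings, and 9193 to 11163 at 1 µM.

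**Figure D3:**
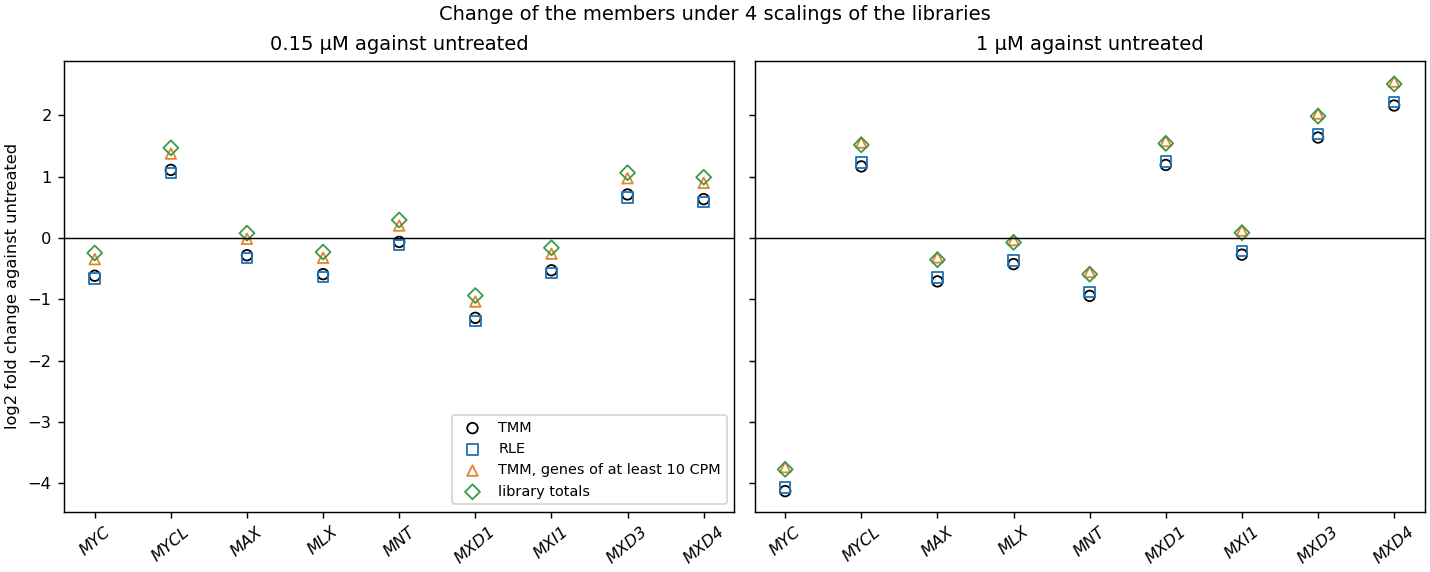
The log2 fold change of each member against untreated cells at 0.15 µM (left) and 1 µM (right) is given under TMM, RLE size factors, TMM from genes of at least 10 CPM and library totals, 1 symbol each. MYC at 1 µM lies between -4.13 and -3.73 and MXD1 at 0.15 µM between -1.35 and -0.94, while MAX and MNT at 0.15 µM and MXI1 at 1 µM have values on both sides of 0.

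Levels were compared between members per kb of merged exons (CPM/kb), and the order turned over between the low and the high doses. The divisor merges the exons of all annotated transcripts, 6109 bases for MYC, and is not the length of the transcripts present. The order of members within a dose therefore depends on this divisor. In untreated cells MYC led with 99.9 ± 8.51 CPM/kb, followed by MLX (16.5 ± 1.08), MAX (14.1 ± 1.14), MXD4 (8.79 ± 0.719) and MXI1 (5.74 ± 0.930), each apart from its neighbour in all libraries. MNT (3.33 ± 0.0692) and MXD1 (3.30 ± 0.274) overlapped, as did MXD3 (1.53 ± 0.266) and MYCL (1.497 ± 0.0747). At 0.15 and 0.25 µM MYC was still first and MXD4 second, overlapping with MAX at 0.15 µM. At 1 µM MXD4 led with 39.3 ± 6.29 CPM/kb, apart from MLX (12.3 ± 0.827) and MAX (8.65 ± 0.225). MXD1 (7.53 ± 0.829), MYC (5.72 ± 1.29), MXD3 (4.77 ± 2.52) and MXI1 (4.76 ± 0.417) followed, and each of these overlapped with the next. MYCL (3.37 ± 0.361) and MNT (1.73 ± 0.119) were last among the tested members, each apart from its neighbours. At 0.5 µM MXD4 was first as well, at 41.9 ± 11.4 CPM/kb, and MYC, at 4.86 ± 1.26, overlapped with MXI1 above it and MXD3 below it.

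Ratios within a library do not depend on the scaling, and they are given as a description. Their size, and so whether they lie above or below 1, depends on the exon lengths used. The change with dose in the ratio of a single pair of members does not depend on these lengths. The level of MXD4 per kb was 0.0888 ± 0.0141 of that of MYC in untreated cells, 0.227 ± 0.0899 at 0.15 µM and 0.341 ± 0.119 at 0.25 µM. It was 9.35 ± 4.32 at 0.5 µM and 7.15 ± 2.10 at 1 µM, with 4.79 in the lowest library at 0.5 µM and 0.477 in the highest at 0.25 µM. The ratio of MXD1 to MYC was 0.0331 ± 0.00382, 0.0211 ± 0.00384, 0.0422 ± 0.0129, 1.68 ± 0.315 and 1.38 ± 0.416 from untreated to 1 µM. The ratio of MAX to MYC was 0.141 ± 0.00361 without the inhibitor and 1.81 ± 0.673 and 1.56 ± 0.356 at 0.5 and 1 µM. Summed over the 4 MXD genes and over the 3 MYC genes, the MXD family stood at 0.192 ± 0.0148 of the MYC family in untreated cells, at 0.335 ± 0.113 and 0.505 ± 0.132 at the low doses and at 7.29 ± 1.81 and 6.32 ± 1.49 at the high doses. Within the MXD family, MXD4 held 45.4 ± 3.79% in untreated cells and 69.7 ± 0.713% at 1 µM.

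**Figure D4:**
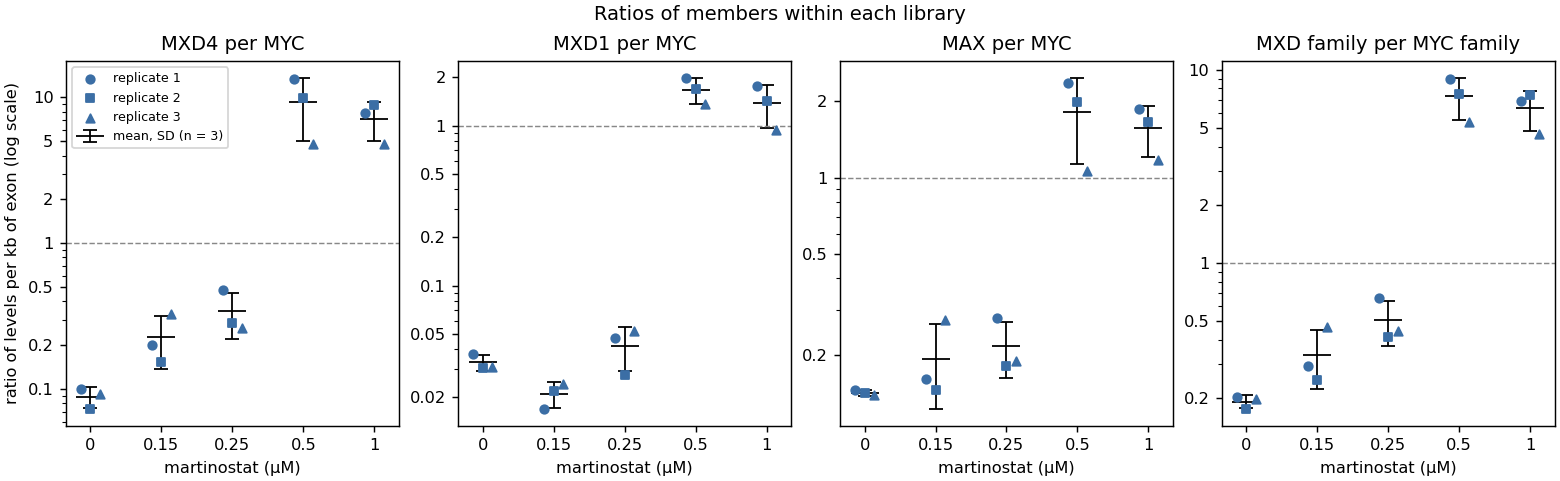
Ratios of levels per kb of exon within each library are on log axes, by dose of martinostat; points are libraries, bars the mean ± SD of 3, and the dashed line marks a ratio of 1. The ratio of MXD4 to MYC lies at 0.477 or lower in all libraries up to 0.25 µM and at 4.79 or higher in all libraries at 0.5 and 1 µM. Where a ratio lies against the dashed line depends on the exon lengths used.

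The targets of the network were followed in lists chosen for their roles. Of 32 genes that MYC activates, 26 were lower and 1 (CCND2, cyclin D2) higher at 0.15 µM, with a median log2 fold change of -1.11. At 0.25 µM 31 were lower and none higher (median -1.81), and at 0.5 µM and at 1 µM 30 were lower and 1 (ODC1) higher, with medians of -2.10 and -2.14. In comparison, 19.4% of all genes were called lower at 0.15 µM and 27.5% at 1 µM. NOP16, a ribosome assembly factor, was at 113 ± 7.08 CPM in untreated cells, 38.8 ± 3.26 at 0.15 µM and 5.74 ± 0.281 at 1 µM, a log2 fold change of -4.30 (SE 0.14, edgeR adjusted p = 2.93e-14) at the top dose. HSPE1, the mitochondrial co-chaperonin, was at 139 ± 3.21, 40.8 ± 2.33 and 10.7 ± 2.48 CPM in the same groups (-3.69 at 1 µM, SE 0.17, edgeR adjusted p = 1.82e-12). At 0.15 µM NOP16 stood at -1.54 (edgeR adjusted p = 9.7e-09) and HSPE1 at -1.77 (edgeR adjusted p = 3.36e-08), beside -0.61 for MYC. How these changes relate to MYC was not tested. Apart from them stood IMPDH2, an enzyme of guanine nucleotide synthesis, at 401 ± 15.2, 246 ± 47.0 and 418 ± 14.8 CPM, lower at 0.15 µM (-0.71, edgeR adjusted p = 0.00427) and not called at 1 µM (0.06, edgeR adjusted p = 0.802). ODC1, the first enzyme of polyamine synthesis, was lower at 0.15 µM (-2.26, edgeR adjusted p = 8.62e-09) and higher at 1 µM (0.96, edgeR adjusted p = 9.73e-05). The list also holds TFRC, an erythroid marker that is part of the marker sum given above. Its mean was 1228 CPM without the inhibitor, 423 and 373 CPM with the low doses, and 467 and 485 CPM with the high doses. TFRC was thus below its untreated level throughout but lowest at 0.25 µM, whereas the marker sum was lower with both high doses than at 0.25 µM.

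Of 8 genes that MYC represses, CDKN2B was not tested. Of the other 7, 4 were higher and 1 lower both at 0.15 µM (median log2 fold change 0.66) and at 1 µM (2.05). Of all genes, 31.9% and 38.8% were called higher and 51.2% and 66.2% called in either direction at these doses, so 5 of 7 called is near that share at 1 µM. Higher at 1 µM were the cell cycle inhibitors CDKN1A (6.51) and CDKN1C (5.49), the stress gene NDRG1 (4.39) and CEBPA (2.05), a myeloid transcription factor. CDKN1B, the inhibitor p27, was the lower one, at 70.7 ± 4.23 CPM in untreated cells, 57.2 ± 2.90 at 0.15 µM and 30.6 ± 2.47 at 1 µM (-1.21, SE 0.12, edgeR adjusted p = 6e-08). NDRG2, a relative of NDRG1, was at 51.7 ± 3.13, 81.9 ± 15.0 and 45.1 ± 5.48 CPM, higher at 0.15 µM (0.66, edgeR adjusted p = 0.00208) and not called at 1 µM (-0.20, edgeR adjusted p = 0.288). Under library totals 6 of these genes were higher and none lower at 0.15 µM, where 9582 of 23711 genes were called higher. The list thus held genes of both directions, and its name describes its members' known relation to MYC and not what these libraries show.

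Among 12 cofactors of MYC, 5 were lower and 1 higher at 0.15 µM (median -0.45), and 8 were lower and 1 higher at 1 µM (median -0.75; 6 lower and 2 higher under library totals). The 6 and 9 of 12 called were close to the share of all genes called, 51.2% and 66.2%, while 19.4% and 27.5% of all genes were called lower. Under library totals 15585 of 23711 genes were called at 1 µM, 10808 of them higher. KAT2A, the acetyltransferase GCN5, was at 126 ± 2.94 CPM in untreated cells, 54.1 ± 2.02 at 0.15 µM and 23.6 ± 3.51 at 1 µM (-2.42, SE 0.18, edgeR adjusted p = 8.14e-10). WDR5, which anchors MYC on chromatin, was at 187 ± 3.03, 83.4 ± 4.87 and 56.3 ± 4.74 CPM (-1.73 at 1 µM, SE 0.15, edgeR adjusted p = 6.42e-09). The higher one was ZBTB17, or MIZ-1, through which MYC represses genes, at 35.8 ± 0.550, 55.0 ± 8.59 and 48.2 ± 4.21 CPM (0.43 at 1 µM, SE 0.14, edgeR adjusted p = 0.00956). BPTF, a chromatin remodeller subunit, was at 150 ± 9.30 and 158 ± 20.7 CPM in untreated cells and at 1 µM, not called (0.07, edgeR adjusted p = 0.66).

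Of 10 genes for corepressors that MXD proteins recruit, 7 were lower and none higher at 0.15 µM (median -0.53; 2 lower and 1 higher under library totals), and 5 were lower and 2 higher at 1 µM (median -0.40; 4 lower and 4 higher under library totals). With TMM 19.4% of all genes were called lower at 0.15 µM and 27.5% at 1 µM. Under library totals 11700 of 23711 genes were called at 0.15 µM, 9582 of them higher. At 1 µM library totals called 15585, 10808 of them higher. HDAC2 was at 333 ± 13.3 CPM in untreated cells and 103 ± 3.95 at 1 µM (-1.70, SE 0.13, edgeR adjusted p = 2.08e-09), and the histone chaperone RBBP4 at 352 ± 11.2 and 145 ± 5.70 CPM (-1.28, SE 0.12, edgeR adjusted p = 3.63e-08). HDAC1 was at 251 ± 13.3 and 321 ± 5.38 CPM and was not called at 1 µM (0.36, SE 0.17, edgeR adjusted p = 0.0798). It was called higher at 0.5 µM, where it was at 348 ± 78.2 CPM, and between 0.15 and 1 µM. The 2 genes higher at 1 µM were the scaffolds SIN3A (0.32) and SIN3B (0.39, SE 0.16, edgeR adjusted p = 0.0375). SIN3B was at 65.3 ± 3.26 CPM in untreated cells and 85.6 ± 13.5 at 1 µM.

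Genes that set the stability of the MYC protein numbered 11, of which 5 were lower and 1 (the kinase gene PIM1) higher at 0.15 µM (median -0.42; 4 lower and 2 higher under library totals) and 7 were lower and none higher at 1 µM (median -0.59; 5 lower and 2 higher under library totals). The 6 and 7 of 11 called were close to the 51.2% and 66.2% of all genes called in either direction, and 19.4% and 27.5% of all genes were called lower. Library totals called 11700 of 23711 genes at 0.15 µM, 9582 of them higher, and 15585 at 1 µM, 10808 of them higher. Factors known to stabilise MYC proteins were among the lower ones: AURKA, the Aurora A kinase, was at 105 ± 7.85 CPM in untreated cells and 20.7 ± 0.850 at 1 µM (-2.34, SE 0.19, edgeR adjusted p = 2.47e-09), and CIP2A, an inhibitor of the phosphatase PP2A, at 58.5 ± 7.47 and 12.1 ± 0.544 CPM (-2.27, SE 0.20, edgeR adjusted p = 9.82e-09). A pair of genes that mark MYC for decay had values near those of untreated cells, GSK3B with 59.1 ± 2.22 and 58.8 ± 5.73 CPM and the ubiquitin ligase gene HUWE1 with 508 ± 40.9 and 547 ± 95.5 CPM, and neither was called at 1 µM (edgeR adjusted p = 0.956 and 0.595). These are mRNA levels, and no protein was measured in these libraries.

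Around MLX, 3 of 5 genes were higher at 0.15 µM and none lower (median 0.45; 2 higher and 1 lower with RLE size factors), and 3 were higher and 1 lower at 1 µM (median 2.27). Of all genes, 31.9% were called higher at 0.15 µM and 38.8% at 1 µM, and 51.2% and 66.2% in either direction. RLE size factors called 12233 of 23711 genes at 0.15 µM, 7283 of them higher. MLXIPL, or ChREBP, was at 2.19 ± 0.210 CPM in untreated cells, 34.2 ± 6.07 at 0.15 µM and 57.5 ± 6.49 at 1 µM (4.71, SE 0.24, edgeR adjusted p = 5.1e-12). MLXIP, or MondoA, the other partner, was at 296 ± 32.2, 311 ± 67.6 and 137 ± 19.5 CPM, not called at 0.15 µM (0.07, edgeR adjusted p = 0.758) and lower at 1 µM (-1.12, SE 0.17, edgeR adjusted p = 1.53e-05). Both arrestin-like genes known as their targets rose at both doses. TXNIP was at 246 ± 23.7, 336 ± 7.79 and 1187 ± 26.2 CPM (2.27 at 1 µM, edgeR adjusted p = 1.55e-09), and ARRDC4 at 39.1 ± 4.05, 56.8 ± 10.8 and 690 ± 76.3 CPM (4.14, SE 0.18, edgeR adjusted p = 7.87e-13). MGA, a large protein that pairs with MAX, was at 149 ± 5.78 and 127 ± 13.2 CPM in untreated cells and at 1 µM and was not called (-0.23, edgeR adjusted p = 0.189). MGA is 1 of the 5 genes and so enters their counts and medians. At 0.15 µM without replicate 1 of that dose, 1 of the 5 genes was called, and 10911 of all 23711 genes.

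**Figure D5:**
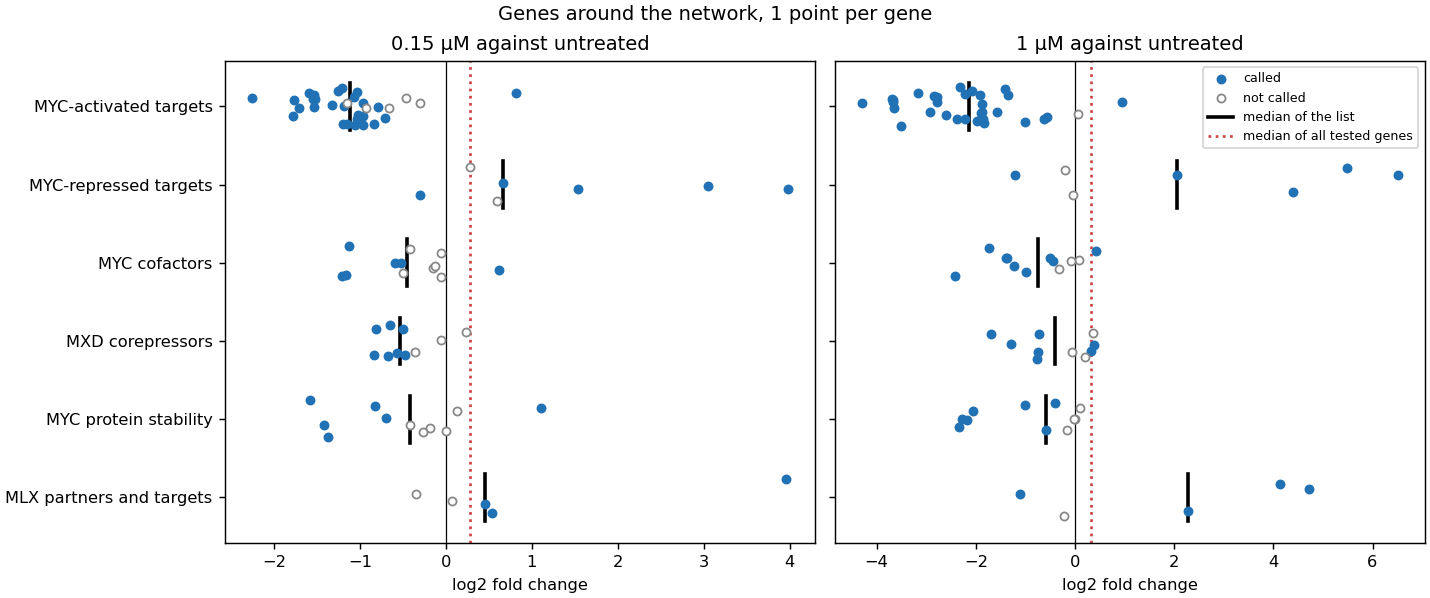
Each point is 1 gene of the 6 lists around the network, with its log2 fold change against untreated cells at 0.15 µM (left) and 1 µM (right) on the x axis; filled points were called, black bars are list medians, and the dotted line is the median of all tested genes. The MYC-activated list has its median at -1.11 and -2.14. The MYC-repressed list has its median at 0.66 on the left and 2.05 on the right. The list of MLX partners and targets, which also holds the MAX partner gene MGA, has medians of 0.45 and 2.27.

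Over the 15 libraries, the genes whose log2 CPM followed MYC most closely among 10128 genes of at least 10 CPM were ZBED10P (Pearson r = 0.996), CCDC50 (0.994) and STAT5B (0.993), the last of them a transcription factor downstream of BCR-ABL. For MXD4 they were ASMTL (0.989), the cell cycle inhibitor gene CDKN1C (0.989) and TMEM175 (0.984). Among the members, r with MYC was -0.97 for MXD4, -0.82 for MXD1, -0.76 for MXD3, -0.49 for MYCL, -0.029 for MXI1, 0.077 for MLX, 0.81 for MAX and 0.84 for MNT. The 15 libraries fall into 5 dose groups, so these values describe group means for the most part and carry no test.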

How the data were processed

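Poly(A) RNA of 15 K-562 libraries was measured. Per the labels, libraries came from a directional kit, and the submitters' processing notes name Trim Galore 0.6.10, HISAT2 2.2.1, SAMtools 1.21, featureCounts 1.5.3 and hg38. The deposited table holds the authors' raw counts per gene, with no normalisation. Whether the authors counted by strand is not given in the sources used here, so genes with exons under another gene are uncertain. The deposited FPKM tables were not used. Groups came from the sample titles. Positions and exon lengths were taken from GENCODE v44.

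The tests used edgeR 4.0.16 (R 4.3.3): filterByExpr, TMM, 1 fit of all libraries by group, the robust quasi-likelihood F test and Benjamini-Hochberg adjustment over 23711 genes, with calls at an adjusted p under 0.05. The SE was the absolute log2 fold change over the square root of F. The fit was tested on simulated data in which few genes changed, as many up as down. Such a setting cannot test the scaling of these libraries, where most genes were called against untreated cells. Alternatives were other scalings and filters, DESeq2 1.42.0, a replicate block, the 6 compared libraries alone, and leaving out each library. Leaving out replicate 3 at both 0.25 and 0.5 µM was chosen after seeing the data. All replicate pairs differed by more than counting noise (chi-square over degrees of freedom 5.85 or more).

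Members and lists were chosen with earlier results of these data known. Named were all members, from each list the 2 highest and 2 lowest genes by change at 1 µM among those of at least 10 CPM on average (all of them in lists of 6 or fewer), and the 3 genes most like MYC and MXD4. Genes outside this rule that make up a count of 5 or fewer were named after their values were seen.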

Additional observations from a re-analysis of the deposited data

Results flagged for a closer look

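MXD1 responded differently at the lowest and at the highest dose. Its log2 fold change against untreated cells was -1.30 at 0.15 µM and 1.19 at 1 µM, and the difference between these doses, tested directly in the same fit, was 2.49 (SE 0.19, edgeR adjusted p = 4.51e-09). All 3 libraries at 0.15 µM were below, and all 3 at 1 µM above, the untreated libraries. Over the 24 alternatives this difference ranged from 2.38 to 2.69. Both effects were measured against the same untreated libraries, which the direct comparison of the doses does not use.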

How the results depend on the processing

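Of 1728 values of members under 24 alternatives, 1609 kept their direction and their side of the threshold, 39 lost a call, 34 gained one, 45 changed sign without a call, and 1 reversed: MLX at 0.5 µM was 0.011 with TMM from genes of at least 10 CPM. Of 39 called comparisons, 27 were called under every alternative. The number of called members was 4 instead of 7 at 0.25 µM under library totals, while all genes called were 14764 instead of 14761. Between 0.15 and 0.25 µM the number of called members was 2 instead of 1 with RLE size factors, TMM from genes of at least 10 CPM, no filter, at least 10 counts in every library, and DESeq2. All genes called in these settings were 2746, 2912, 3208 of 48321, 2213 of 14096, and 3889, beside 2911 with TMM. With 1 library left out the number of called members ranged from 3 to 6 at 0.15 µM (3 without untreated replicate 2). It ranged from 1 to 2 between 0.15 and 0.25 µM (2 without replicate 2 at 0.15 µM). All genes called ranged from 10591 to 13017 and from 1740 to 4065 in these comparisons. Of the MXD corepressors, 3 instead of 7 were called at 0.15 µM under library totals, while all genes called were 11700 instead of 12148. Of the MLX list, 1 to 4 were called at that dose with 1 library left out. Where another scaling moved the split of members, library totals gave 2 higher and 3 lower between 0.25 and 0.5 µM (3 and 1 with TMM). All genes called in that step were 6930, 2409 of them higher (7211 and 3409 with TMM). TMM from genes of at least 10 CPM gave 4 higher and 3 lower between 0.15 and 1 µM (2 and 3 with TMM). All genes called there were 10607, 5913 of them higher (10562 and 5090 with TMM). The causes were not tested beyond these settings.

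The replicate numbers were not taken to pair the libraries. In 1 of 10 pairs of groups, 0.25 with 0.5 µM, every same-numbered correlation of deviations was over 0.1. It was 0.691 to 0.867 in that pair, beside -0.807 to 0.514 for different numbers, and the main fit of that step left this likeness out. Over all pairs the same-numbered correlation ran from -0.423 to 0.867. In 10 of 30 cases a library correlated best with its own number. With the replicate block, 6, 7, 8 and 8 members were called against untreated cells in the order of dose, and 6 instead of 5 between 0.15 and 1 µM. All genes called with the block were 12136, 14750, 15816 and 15808 in the same order, and 10576 between 0.15 and 1 µM. Between 0.25 and 0.5 µM the block called 4 members, as did the main fit, and 7161 genes in all.

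Depth was not limiting for members other than MYCN. The 3 libraries per group, 1 cell line and 1 time point limit the results, and the series' design text calls the biological replicates independent without saying what separated them.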
